A study of Mus musculus with 6 samples.

Results

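Tachykinins and other neuropeptides are short signalling peptides cut from larger precursor proteins in the secretory pathway and released from dense-core vesicles. They act on G protein-coupled receptors and mostly modulate fast transmission, and several also act as growth or survival signals in developing tissue. In the rodent cerebellum the best known of these is the pituitary adenylate cyclase-activating peptide PACAP, which restrains division of granule neuron precursors and protects young granule neurons.

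The set held 10 genes of 22180 genes tested. 8 encode peptide precursors (Tac1, Tac2, Sst, Npy, Cck, Penk, Pdyn and Adcyap1) and 2 encode tachykinin receptors (Tacr1 and Tacr3). The genes were given by name, and the probe set of each was to be chosen by its mean log2 value over the arrays, from those annotated to that symbol alone. Each of the 10 had exactly 1 such probe set, so brightness decided nothing here. The set was drawn up with the difference of Tac2 already known, so its test is given as a value of the fit over all genes and adds no independent support.

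RNA came from whole cerebellum of mice at postnatal day 7, in 3 Crebbp knockout samples (Math1Cre::CrebbpFl/Fl) and 3 samples with wild-type Crebbp (Math1Cre). Both groups therefore carry the Math1Cre transgene, and the knockout group carries floxed Crebbp on both alleles. Math1, also called Atoh1, is expressed in granule neuron precursors, which Cre is meant to target, and it also marks other rhombic lip derivatives such as glutamatergic nuclear neurons. Which cells lost Crebbp was not measured in whole tissue. CREBBP is an acetyltransferase and coactivator of the transcription factor CREB. The labels do not say whether each array came from its own animal, and the p-values rest on the spread between these arrays alone, which may be technical. Fewer cells of a type and less RNA per cell cannot be told apart in such tissue.

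The values were deposited as log2 expression, 1 per probe set and array. Array medians ran from 7.25 to 7.29. Crebbp itself averaged 11.40 ± 0.07 in knockout and 11.95 ± 0.05 in wild type (SD, n = 3 each), lower on all 3 knockout arrays (log2 change -0.56, SE 0.05, limma adjusted p = 0.000354). Cerebellar markers were present. The granule lineage list (10 of 10 genes measured) had a mean level of 10.11 to 10.27 on knockout and 10.58 to 10.74 on wild-type arrays. Of these 10 genes, 7 fell and 1 rose (limma adjusted p under 0.05), against 3.94% and 2.72% of all genes. The part of this shift in the other differences was not tested. The Purkinje list (7 of 9) had 10.38 to 10.49 on knockout and 10.30 to 10.35 on wild-type arrays. 3 arrays stood apart by Ttr, the transthyretin gene of choroid plexus epithelium. It lay at 13.77 and 13.92 on knockout replicates 1 and 3 and at 12.30 on wild-type replicate 1. On knockout replicate 2 it was 9.19, and on wild-type replicates 2 and 3 it was 8.08 and 8.91. Xist, read only from cells with an inactive X chromosome, lay at 12.30 on knockout replicate 3 and at 12.27 and 12.32 on wild-type replicates 1 and 2, and at 5.74 to 6.45 on the other arrays.

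CREB binds the cyclic AMP response element, whose full form is TGACGTCA and whose half-site is TGACG, and the element was first described in the somatostatin gene. Windows of 300 bases, from 250 before to 50 after each start, were taken from RefSeq (GRCm38.p6) for 9 of the 10 genes, with 11 windows in all since Pdyn and Adcyap1 have more than 1 start. Penk had no entry. They are shown for Tac2, the gene that differed between the groups, for Cck and Adcyap1, which had the next largest differences, and for Sst, which carries the full element. Capitals mark each half-site on either strand, TGACG or its reverse complement CGTCA, and the windows run 5′ to 3′ on the gene's own strand.
Tac2, chr10:127724228-127724527, plus strand: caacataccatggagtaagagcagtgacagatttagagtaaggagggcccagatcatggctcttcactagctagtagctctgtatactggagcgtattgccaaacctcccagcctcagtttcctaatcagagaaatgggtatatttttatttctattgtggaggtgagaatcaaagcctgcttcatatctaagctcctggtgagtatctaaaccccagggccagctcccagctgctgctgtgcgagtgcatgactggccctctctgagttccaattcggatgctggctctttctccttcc
Cck, chr9:121495645-121495944, minus strand: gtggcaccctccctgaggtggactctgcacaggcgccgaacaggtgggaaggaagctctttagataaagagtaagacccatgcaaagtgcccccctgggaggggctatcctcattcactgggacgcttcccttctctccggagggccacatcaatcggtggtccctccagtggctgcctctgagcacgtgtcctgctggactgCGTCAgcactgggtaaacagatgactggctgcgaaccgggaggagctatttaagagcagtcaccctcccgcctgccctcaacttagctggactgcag
Adcyap1, chr17:93198918-93199217, plus strand: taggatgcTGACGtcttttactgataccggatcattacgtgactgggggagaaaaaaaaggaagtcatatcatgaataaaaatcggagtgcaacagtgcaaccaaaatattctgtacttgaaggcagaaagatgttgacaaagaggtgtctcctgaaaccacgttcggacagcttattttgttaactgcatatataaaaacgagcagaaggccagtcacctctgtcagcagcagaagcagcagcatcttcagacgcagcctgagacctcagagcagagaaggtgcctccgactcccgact
Sst, chr16:23890795-23891094, minus strand: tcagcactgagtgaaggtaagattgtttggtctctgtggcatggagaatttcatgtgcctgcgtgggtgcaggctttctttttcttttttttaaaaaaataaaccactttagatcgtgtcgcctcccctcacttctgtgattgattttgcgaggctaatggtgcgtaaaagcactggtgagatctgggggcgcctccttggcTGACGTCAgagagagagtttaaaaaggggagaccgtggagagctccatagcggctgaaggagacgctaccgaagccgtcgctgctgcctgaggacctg

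The Tac2 window held no half-site, and neither did those of Npy and Pdyn. The Sst window held the full element, starting 48 bases before the transcription start, where the half-sites of both strands overlap. Cck had 1 half-site, starting 47 bases before the start. Adcyap1 had 1 as well, which lies in both of its overlapping windows. Tac1 had 2 half-sites, and Tacr1 and Tacr3 had 1 each. In all, 6 of the 9 genes had a half-site and 1 had the full element. Counted by window, 7 of the 11 (63.6%) held a half-site and 1 (9.09%) the full element. Of all 32851 windows of this length in the table, 20.8% held a half-site on either strand and 1.79% the full element. A match describes the letters only, and the absence of one in a window of this size says nothing about binding of CREB.

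The comparison asked how the RNA of these genes differed between Crebbp knockout and wild-type cerebellum. Tac2, which encodes the precursor of neurokinin B, was 1.94-fold as high in knockout cerebellum. The other tachykinin gene, Tac1, and both tachykinin receptor genes did not pass the test, and neither did the 6 other precursors. Genes were compared with limma on the log2 values, knockout minus wild type, and a gene passed at a Benjamini-Hochberg adjusted p under 0.05 over all genes. By this rule 1 of the 10 genes rose and 0 fell, against 2.72% of all genes that rose and 3.94% that fell. At an unadjusted limma p under 0.05, 4 of the 10 genes differed (Tac2, Cck, Adcyap1 and Penk), against 20.4% of all genes. Both counts include Tac2, which was known to differ when the set was drawn up, so they add no independent support. The median change over the 10 genes was 0.13 on the log2 scale, and over all genes it was -0.0028.

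**Figure D1:**
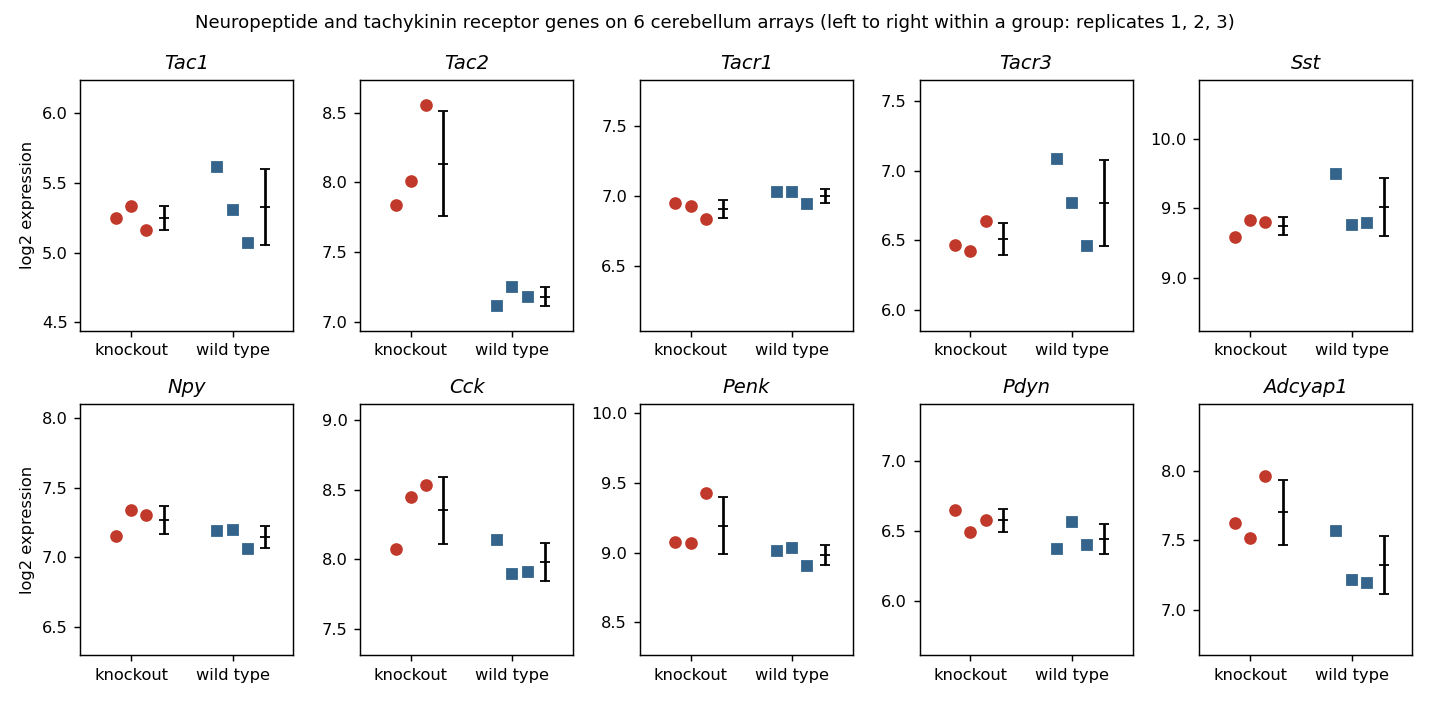
Log2 expression of the 10 genes on each array, with knockout (circles) left of wild type (squares), replicates 1 to 3 from left to right within a group, and the group mean with its SD (n = 3) as a bar; every panel spans the same range of log2 units. For Tac2 the knockout arrays lay at 7.84 to 8.56, all above the wild-type arrays at 7.12 to 7.25, while in 8 of the other 9 panels the groups overlap, and for Penk the gap was 0.03. Of all genes, 11.8% lay apart with knockout higher and 13.1% with knockout lower.

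Tac2 read 7.84, 8.01 and 8.56 on knockout replicates 1 to 3, and 7.12, 7.25 and 7.17 on wild-type replicates 1 to 3. The groups did not overlap, as for 11.8% of all genes in this direction. The gap between the lowest knockout and the highest wild-type array was 0.59. The knockout values were spread over a wider range than the wild-type values, with replicate 3 the highest. The group means were 8.14 ± 0.38 in knockout and 7.18 ± 0.07 in wild type (SD, n = 3 each). The log2 change was 0.96 (SE 0.15, limma adjusted p = 0.00648), a fold change of 1.94 with a 95% confidence interval of 1.53 to 2.46. By size it ranked 15 among the 604 genes that rose, whose median log2 change was 0.36.

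The 3 arrays with high Ttr were found in both groups, so the Tac2 values can be set beside Ttr. Knockout replicate 2, with Ttr at 9.19, read 8.01 for Tac2, and wild-type replicate 1, with Ttr at 12.30, had the lowest Tac2 value of all, 7.12. Among the arrays with Ttr above 10 the difference of Tac2 was 1.08, between 2 knockout arrays and 1 wild-type array. Among the arrays with Ttr below 10 it was 0.80, between 1 knockout and 2 wild-type arrays. The single knockout array has no spread of its own, so the p-value of that fit is not given. When the mean level of 9 choroid plexus markers (of 12 listed) entered the fit as a covariate, the change was 0.80 (SE 0.18) and the call was lost (adjusted p = 0.0592). That mean level was 8.90, 7.18 and 9.55 on knockout replicates 1 to 3 and 7.81, 7.11 and 7.15 on wild-type replicates 1 to 3. By this level wild-type replicate 1 lay closer to the arrays with low Ttr than to knockout replicates 1 and 3. Choroid plexus RNA was thus not balanced between the groups. The arrays can be split by Xist in the same way. The difference of Tac2 was 1.37 between 1 knockout and 2 wild-type arrays with high Xist, and 0.75 between 2 knockout arrays and 1 wild-type array with low Xist. With Xist as a covariate the change of Tac2 was 1.05 (SE 0.13, adjusted p = 0.00447).

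**Figure D2:**
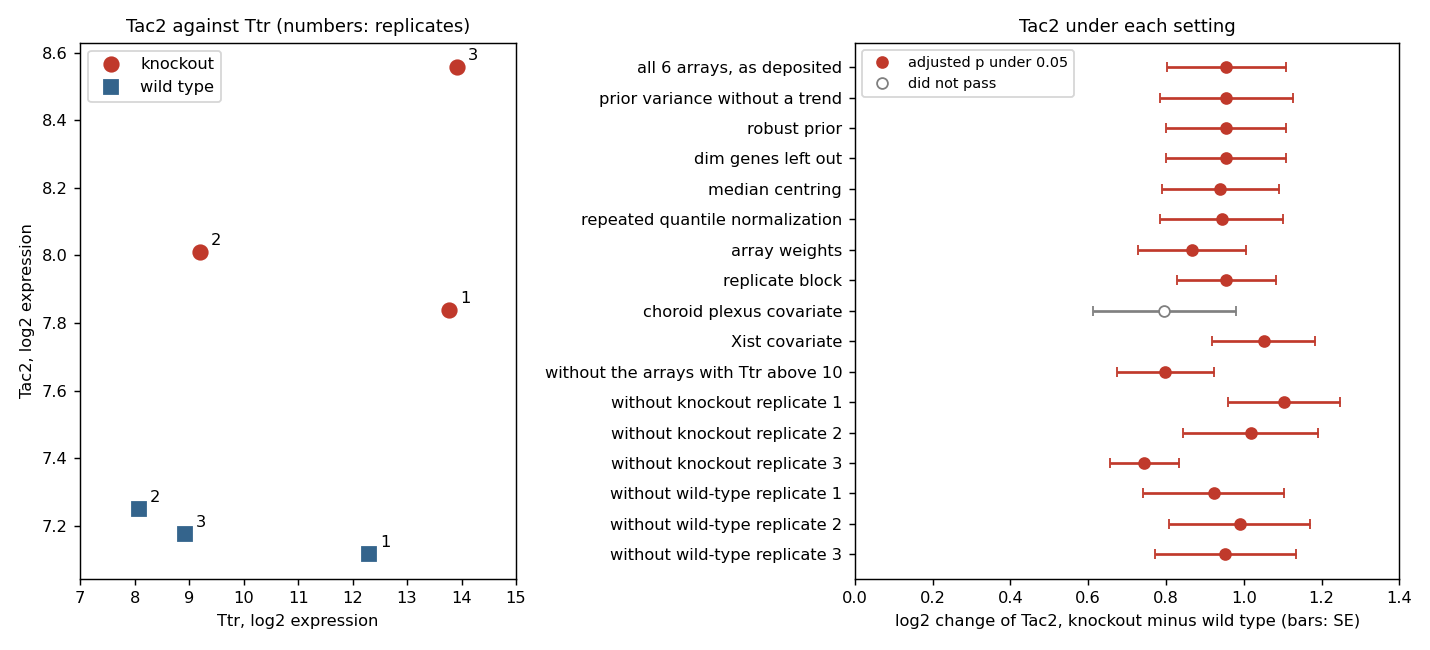
Left, log2 expression of Tac2 against that of the choroid plexus gene Ttr on each array, with knockout as circles and wild type as squares, numbered by replicate. Right, the log2 change of Tac2 (knockout minus wild type, bars show the SE) with all arrays as deposited and under 16 other settings; it ran from 0.74 to 1.10 and passed in 14 of the 15 that hold more than 1 knockout array, the exception being the choroid plexus covariate. The fit without the arrays with Ttr above 10 holds 1 knockout array, which is assumed there to vary like the wild-type arrays. Its point is drawn by the same rule but left out of that count.

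Tac1 encodes the precursor of substance P and neurokinin A. It read 5.25, 5.34 and 5.16 on knockout replicates 1 to 3, and 5.61, 5.31 and 5.07 on wild-type replicates 1 to 3. The wild-type values enclosed the knockout values. The log2 change was -0.08 (SE 0.14, limma adjusted p = 0.833), with a 95% confidence interval from -0.40 to 0.24. Tac1 was dim, with a mean of 5.29 where the 25th percentile of the table was 6.02, and the values carry no detection call. The difference turned to 0.06 without wild-type replicate 1.

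Tacr3, the receptor that prefers neurokinin B, read 6.47, 6.42 and 6.64 in knockout and 7.08, 6.77 and 6.46 in wild type. The highest wild-type array, replicate 1, lay well above all knockout arrays, while the lowest, replicate 3, lay among them. The log2 change was -0.26 (SE 0.14, limma adjusted p = 0.366), with a 95% confidence interval from -0.58 to 0.06. Leaving out wild-type replicate 1 gave -0.10 (adjusted p = 0.777), and leaving out replicate 3 of that group gave -0.41 (adjusted p = 0.0984). Tacr1, the receptor that prefers substance P, read 6.95, 6.93 and 6.84 in knockout and 7.03, 7.03 and 6.95 in wild type. The lowest wild-type array lay just below the highest knockout array, so the groups overlapped. Its log2 change was -0.09 (SE 0.08, limma adjusted p = 0.584), with a 95% confidence interval from -0.27 to 0.08. Neither receptor gene of the set passed.

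**Figure D3:**
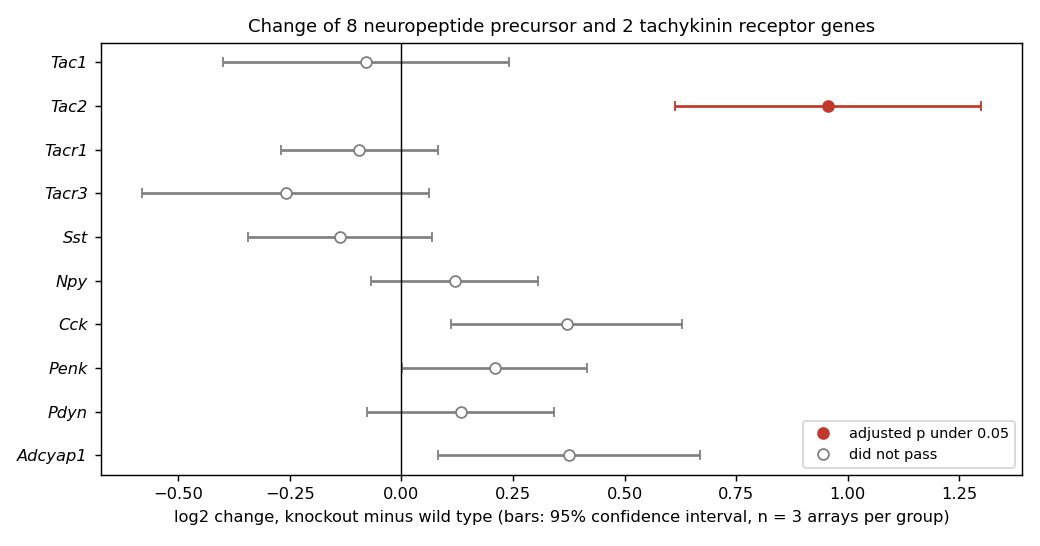
Log2 change (knockout minus wild type) of the 10 genes with its 95% confidence interval (n = 3 arrays per group); filled red points passed at an adjusted p under 0.05. Tac2 lay at 0.96, Adcyap1, Cck and Penk at 0.38, 0.37 and 0.21 with unadjusted intervals above 0, and the other 6 genes between -0.26 and 0.13.

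Cck encodes cholecystokinin, a peptide of brain and gut. It read 8.08, 8.45 and 8.53 on knockout replicates 1 to 3, and 8.13, 7.90 and 7.91 on wild-type replicates 1 to 3. The groups overlapped through knockout replicate 1, which lay below wild-type replicate 1. The log2 change was 0.37 (SE 0.12, limma adjusted p = 0.0960), with a 95% confidence interval from 0.11 to 0.63. Without knockout replicate 1 it was 0.51 and passed (SE 0.09, adjusted p = 0.0209). Among the 3 arrays with Ttr below 10, of which 1 is a knockout array, it was 0.54.

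Adcyap1 encodes PACAP. It read 7.62, 7.52 and 7.96 on knockout replicates 1 to 3, and 7.57, 7.22 and 7.19 on wild-type replicates 1 to 3. Wild-type replicate 1 lay inside the knockout range and the other wild-type arrays lay below it. Its log2 change was 0.38 (SE 0.13, limma adjusted p = 0.133), with a 95% confidence interval from 0.08 to 0.67. With Xist as a covariate it was 0.46 and passed (SE 0.11, adjusted p = 0.0483), while the choroid plexus covariate brought it to 0.14 (SE 0.12, adjusted p = 0.645). The highest values in each group fell on arrays with high Ttr, knockout replicates 1 and 3 and wild-type replicate 1.

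Penk and Pdyn encode the opioid precursors of the enkephalins and the dynorphins. Penk read 9.08, 9.07 and 9.43 on knockout replicates 1 to 3, and 9.01, 9.04 and 8.90 on wild-type replicates 1 to 3. The groups did not overlap, but the gap was 0.03, and 11.8% of all genes lay apart in this direction. The log2 change was 0.21 (SE 0.09, limma adjusted p = 0.241), and it was 0.09 without knockout replicate 3 (adjusted p = 0.505) and 0.07 under the choroid plexus covariate (adjusted p = 0.796). Pdyn read 6.65, 6.49 and 6.58 in knockout and 6.37, 6.57 and 6.40 in wild type. The groups overlapped, and the log2 change was 0.13 (SE 0.09, limma adjusted p = 0.501).

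Sst encodes somatostatin, which inhibits hormone and transmitter release. It read 9.30, 9.42 and 9.40 on knockout replicates 1 to 3, and 9.75, 9.38 and 9.39 on wild-type replicates 1 to 3. 5 of the 6 arrays lay between 9.30 and 9.42, and wild-type replicate 1 stood above them. Sst had a log2 change of -0.14 (SE 0.09, limma adjusted p = 0.470) and -0.02 (SE 0.06) without wild-type replicate 1. Npy, the precursor of neuropeptide Y, read 7.16, 7.34 and 7.30 in knockout and 7.19, 7.20 and 7.06 in wild type. Its groups overlapped, with a log2 change of 0.12 (SE 0.08, limma adjusted p = 0.492). For Sst the 95% confidence interval ran from -0.34 to 0.07 and for Npy from -0.07 to 0.31.

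Across the 10 genes, knockout replicate 3 had the highest value for 4 (Tac2, Cck, Penk and Adcyap1). How often this array is the highest over all genes was not counted. Wild-type replicate 1 had the highest value for 3 (Tac1, Tacr3 and Sst). Of the 8 precursors, 6 were higher on average in knockout and 2 lower, with 1 past the test. Of all 22180 genes, 10898 were higher and 11282 lower. Knockout replicate 3 also had the highest mean level of the choroid plexus markers, 9.55, and of the meninges markers (8 of 8 measured), 10.01, against 9.53 and 9.60 on the other knockout arrays and 9.34 to 9.50 on the wild-type arrays. The part of the meninges in the peptide values was not tested.

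Several neuropeptides of the cerebellum are made by inhibitory interneurons. Their markers (8 of 9 measured) had a mean level of 8.77 to 8.99 on knockout and 8.82 to 8.85 on wild-type arrays. Unipolar brush cell and nuclear neuron markers (6 of 8) lay at 7.39 to 7.42 on knockout and 7.50 to 7.66 on wild-type arrays. Of the 6, 2 were higher on average in knockout (Eomes and Lmx1a) and 4 lower (Calb2, Meis2, Tbr1 and Lhx9). Meis2, Tbr1 and Lhx9 had log2 changes of -0.68, -0.31 and -0.15 and did not pass (limma adjusted p = 0.110, 0.329 and 0.528). Lmx1a had one of 0.10 and did not pass either. Eomes, the unipolar brush cell factor, had a log2 change of 0.51 (SE 0.12, limma adjusted p = 0.0330), and its call was lost when knockout replicate 1 or 3 or wild-type replicate 1 or 3 was left out (adjusted p = 0.0542, 0.0547, 0.133 and 0.0748). Calb2, the calretinin gene, had one of -0.64 (SE 0.12, limma adjusted p = 0.0116), lost without wild-type replicate 1 (-0.57, adjusted p = 0.0641). Both calls were also lost with a prior without a trend (adjusted p = 0.112 for Eomes and 0.0603 for Calb2) and with the choroid plexus covariate (0.206 and 0.0728). Among the 3 arrays with Ttr below 10 the difference was 0.26 for Eomes and -0.51 for Calb2. Brainstem and colliculus markers (13 of 15), which neighbouring peptide-rich tissue would bring along, lay at 6.31 to 6.32 on knockout and 6.31 to 6.39 on wild-type arrays. Of these, 4 had a mean below 6.02, the 25th percentile of the table. The highest level of the list, 6.39, lay on wild-type replicate 1, which also had the highest values of Tac1, Tacr3 and Sst. The list was dim, and the part of such tissue in the peptide values was not tested. Oligodendrocyte markers (7 of 8) lay at 8.80 to 9.49 on knockout and 9.56 to 9.64 on wild-type arrays, astrocyte markers (8 of 8) at 11.32 to 11.45 on knockout and 11.27 to 11.31 on wild-type arrays, and microglia markers (8 of 8) at 8.37 to 8.58 on knockout and 8.43 to 8.45 on wild-type arrays. Below the 25th percentile also lay 1 unipolar brush cell and nuclear neuron marker and 1 choroid plexus marker. The values carry no detection call.

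The receptors of the same peptides outside the set included a pair that fell. Of 18 measured, 2 fell, 0 rose and 16 did not pass, with a median log2 change of -0.05. The share that fell was 11.1%, against 3.94% of all genes. Vipr1, a receptor shared by PACAP and vasoactive intestinal peptide, read 7.15, 7.52 and 7.45 in knockout and 8.08, 8.12 and 8.10 in wild type. All knockout arrays lay below all wild-type arrays, and the log2 change was -0.72 (SE 0.10, limma adjusted p = 0.00255), the largest of the list. Sstr2, a somatostatin receptor, read 10.47, 10.52 and 10.53 in knockout and 10.97, 10.83 and 10.91 in wild type. Its groups were apart as well, with a log2 change of -0.40 (SE 0.05, limma adjusted p = 0.00184). Of all genes, 13.1% lay apart in this direction. Both passed under each of the 15 other settings that hold more than 1 knockout array. Among the 3 arrays with Ttr below 10 the change was -0.59 for Vipr1 and -0.35 for Sstr2.

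The other somatostatin receptor genes, Sstr1, Sstr3, Sstr4 and Sstr5, had log2 changes of 0.21, -0.12, 0.27 and -0.08, and none passed. Adcyap1r1, the receptor specific for PACAP and named here beside its ligand, read 11.06, 11.06 and 10.85 in knockout and 11.19, 11.21 and 11.08 in wild type. The groups did not overlap, as for 13.1% of all genes in this direction, and the log2 change was -0.17 (SE 0.06, limma adjusted p = 0.150). Oprm1, the opioid receptor that binds enkephalins and endorphins, had a log2 change of -0.36 (SE 0.10, limma adjusted p = 0.0672). Tacr2, the third tachykinin receptor, had one of 0.26 (SE 0.12, limma adjusted p = 0.265).

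**Figure D4:**
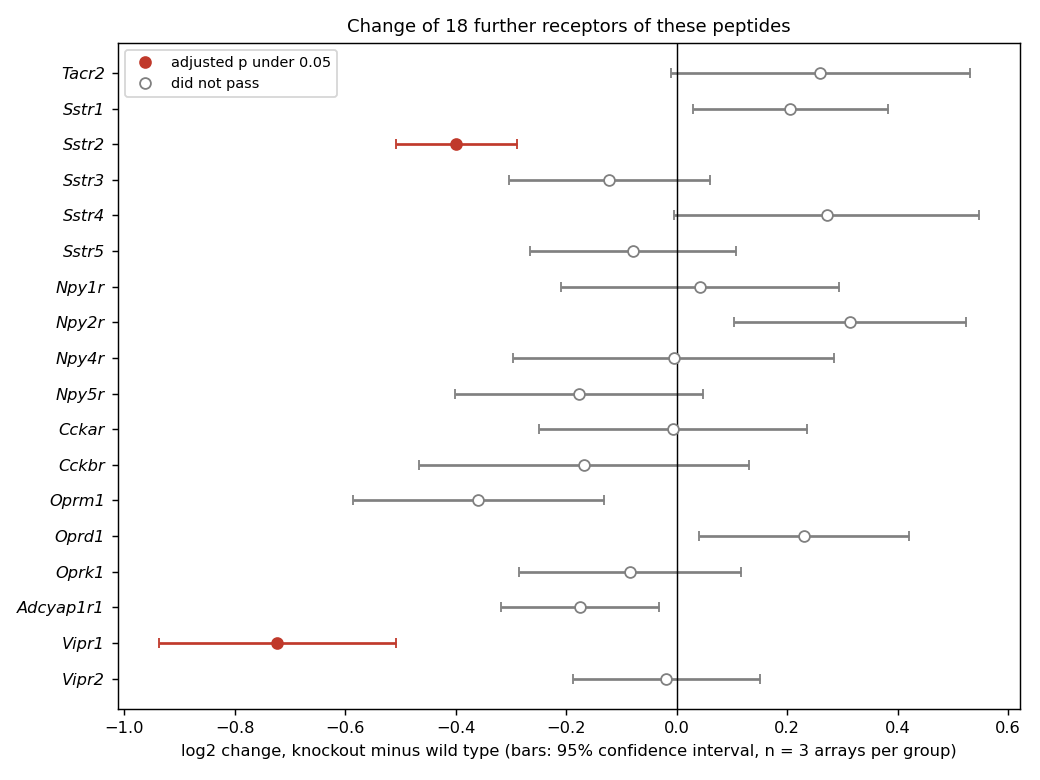
Log2 change (knockout minus wild type) of 18 further receptor genes for these peptides, with 95% confidence intervals (n = 3 arrays per group); filled red points passed at an adjusted p under 0.05. Vipr1 at -0.72 and Sstr2 at -0.40 passed, and the remaining 16 lay between -0.36 and 0.31.

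Among 39 further peptide precursors measured, 1 fell, 0 rose and 38 did not pass, with a median log2 change of -0.06. The share that fell was 2.56%, under the 3.94% of all genes. The gene that fell was Apln, the precursor of apelin, at -0.41 (SE 0.09, limma adjusted p = 0.0207). Its call was lost without knockout replicate 1 (-0.41, adjusted p = 0.0658) and without wild-type replicate 1 (-0.36, adjusted p = 0.0975). Without knockout replicate 3 a second gene fell, Grp, the precursor of gastrin-releasing peptide, at -0.43 (adjusted p = 0.0397), with -0.26 over all 6 arrays (adjusted p = 0.323). Nmb and Edn3, encoding neuromedin B and endothelin-3, had log2 changes of -0.19 each (adjusted p = 0.104 and 0.198).

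Of 18 enzymes that process or degrade peptides, 2 rose, 0 fell and 16 did not pass, with a median log2 change of 0.0022. The share that rose was 11.1%, against 2.72% of all genes. The 2 were the proprotein convertases Pcsk6 and Pcsk5, at 0.28 (SE 0.05, limma adjusted p = 0.0138) and 0.26 (SE 0.06, limma adjusted p = 0.0330). Pcsk5 lost its call whichever array other than knockout replicate 3 was left out, with changes of 0.23 to 0.30 (adjusted p = 0.0602 to 0.109). Pcsk6 lost it without knockout replicate 1 (0.26, adjusted p = 0.0570) and without wild-type replicate 1 (0.25, adjusted p = 0.0734). The neuropeptide-processing enzyme genes Pcsk1, Cpe and Pam, named here for their role, had log2 changes of 0.11, -0.09 and 0.04, and Cpd, a carboxypeptidase, had one of -0.14 (adjusted p = 0.176).

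The 5 genes whose values followed those of Tac2 most closely over the 6 arrays were Pipox, Efcab1, Shc1, Tpp1 and Taf4b, with Pearson's r of 0.991 to 0.995 for the first 4 and 0.990 for Taf4b. These correlations describe 6 arrays in 2 groups that differ, so any gene that separates the groups and peaks on knockout replicate 3 scores high. Pipox, the first of them, had a log2 change of 0.47, from 8.34 ± 0.19 in knockout and 7.87 ± 0.06 in wild type (SD, n = 3 each).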

How the data were processed

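Per the submitters' processing notes, RMA and oligo made the log2 values that the authors deposited, 1 per probe set and array. Their versions, the array's annotation build and any filter were not stated in these sources. The log2 values were used as they stood. GEO's platform annotation gave 1 symbol to 23521 of 41345 probe sets, several to 1814 and none to 16010. The brightest probe set per gene left 22180 genes, tested with limma 3.58.1 under R 4.3.3 (eBayes, trended prior, two-sided, Benjamini-Hochberg). The fit was tested on simulated data. With 3 arrays per group, their number limits the precision. The genes and lists were chosen with earlier results of these data known. Named are all 10 genes, Crebbp, each pathway list's called genes or 3 smallest p, and the 5 genes closest to Tac2, without predicted and small RNA genes. Sstr1, Sstr3, Sstr4, Sstr5, Tacr2, Npy2r, Adcyap1r1, Grp, Pcsk1, Cpe, Pam, Eomes, Calb2, Lmx1a, Meis2, Tbr1 and Lhx9 stand outside this rule, chosen after their values were seen. Calca, Agrp and Pcsk2 had no probe set of their own. Alternatives varied the prior, normalization, weights, dim genes, covariates, threshold, replicate block and arrays. Figures used matplotlib 3.10.9 in Python 3.11.15.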

Additional observations from a re-analysis of the deposited data

How the results depend on the processing

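Tac2 kept its direction under all 16 other settings and passed under 14 of the 15 that hold more than 1 knockout array, and its change ran from 0.74 to 1.10 with single arrays left out. It did not pass with the choroid plexus covariate (0.80, adjusted p = 0.0592). Of the 10 genes, 1 rose with all arrays, 0 with that covariate, 2 with the Xist covariate (Tac2 and Adcyap1), 2 at an adjusted p under 0.1 (Tac2 and Cck) and 1 to 2 with single arrays left out. Tac1 reversed without the arrays with Ttr above 10 (0.15) and without wild-type replicate 1 (0.063), with a range of -0.21 to 0.063 over single arrays left out, and Sst reversed without the arrays with Ttr above 10 (0.031). Tac1 and Sst passed in none of their settings.

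Over all genes 604 rose and 875 fell. The counts were 184 and 310 with a prior without a trend, 255 and 291 with the choroid plexus covariate, 112 and 124 without the arrays with Ttr above 10, and 148 and 343 at an adjusted p under 0.01, while 1023 rose at 0.1. With single arrays left out they ran from 199 to 478 and from 366 to 800. Of the receptors, 2 fell, 1 without the arrays with Ttr above 10 (a fit whose lone knockout array is assumed to vary like the wild-type arrays), and 1 rose at 0.1 (Npy2r). Of the further precursors 1 fell. It was 0 with a prior without a trend, the choroid plexus covariate, the arrays with Ttr above 10 left out or a threshold of 0.01, and 0 to 2 with single arrays left out. Of the enzymes 2 rose. It was 1 with the Xist covariate, 0 under the settings just named and 0 to 2 with single arrays left out. Each other probe set of a gene could not be tested, since the 10 genes had 1 each.

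Deviations from the group mean were compared between same-numbered knockout and wild-type arrays, with r of 0.01, 0.03 and -0.13 across genes. Between differently numbered arrays r ran from -0.14 to 0.12. With so few arrays this cannot tell whether the numbers pair samples. With the replicate block 723 genes rose and 1078 fell, and the change of Tac2 was 0.96 (adjusted p = 0.00439). With 3 arrays per group and no measure of signal over background, small differences in dim genes such as Tac1 were not resolved.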
